A study of Homo sapiens with 14 samples.

Results

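The genes described here encode the subunits of AMP-activated protein kinase (AMPK), its upstream kinase LKB1 and 2 sestrins. They were taken by name: the catalytic subunits PRKAA1 and PRKAA2, the β subunits PRKAB1 and PRKAB2, the γ subunits PRKAG1 and PRKAG2, STK11 (which encodes LKB1), SESN1 and SESN3. These are 9 of the 59471 gene names in the count tables, and 8 of the 9 had at least 1 count. PRKAA2 had none. RNA of SCC23, an established head and neck squamous cell carcinoma (HNSCC) line, was sequenced in 2 experiments as 14 libraries. Cells that were KMT2D-WT and 2 KMT2D-KO lines, KO1 and KO2, stayed in high glucose medium or spent 6 h without glucose, which gave 3 KMT2D-WT and 4 KMT2D-KO libraries in each condition. The KMT2D-KO lines came from cells transfected with a plasmid that carries Cas9, GFP and a KMT2D guide and then sorted for GFP; cloning of single cells is not described, and the protocol names LacZ as the target of the control guide. The question was how the transcripts of this energy-sensing pathway stood in cells with and without KMT2D, and whether 6 h without glucose moved them.

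AMPK is a heterotrimer of a catalytic α, a scaffolding β and a nucleotide-binding γ subunit, each with paralogs, and it is switched on when ATP falls and AMP rises. LKB1, held in a complex with a STRAD pseudokinase and a CAB39 (MO25) scaffold, phosphorylates the activation loop of the α subunit. Sestrins are stress-induced proteins that bind the GATOR2 complex, restrain mTORC1 and can act together with AMPK; SESN1 is known as a p53 target and SESN3 as a FOXO target. Transcript levels do not measure the phosphorylation that sets AMPK activity.

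The promoter windows of the sestrins and of PRKAA2 are shown because these genes stand at the ends of the results, namely the largest difference between genotypes, the opposite direction in its paralog, and no transcript at all. The sequences are from RefSeq, build GRCh38.p14, from 250 bases before to 50 bases after the annotated start, on the strand of the gene. Capitals mark the letters GGGCGG or CCGCCC, a GC box on either strand, and adjoining boxes run together.
SESN3, chr11:95232426-95232725, minus strand: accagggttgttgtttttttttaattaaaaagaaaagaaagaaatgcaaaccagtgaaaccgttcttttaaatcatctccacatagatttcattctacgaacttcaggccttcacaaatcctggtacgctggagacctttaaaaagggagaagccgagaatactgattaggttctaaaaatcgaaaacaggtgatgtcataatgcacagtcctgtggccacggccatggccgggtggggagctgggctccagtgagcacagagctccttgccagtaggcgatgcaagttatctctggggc
SESN1, start of the longest transcript, chr6:109094797-109095096, minus strand: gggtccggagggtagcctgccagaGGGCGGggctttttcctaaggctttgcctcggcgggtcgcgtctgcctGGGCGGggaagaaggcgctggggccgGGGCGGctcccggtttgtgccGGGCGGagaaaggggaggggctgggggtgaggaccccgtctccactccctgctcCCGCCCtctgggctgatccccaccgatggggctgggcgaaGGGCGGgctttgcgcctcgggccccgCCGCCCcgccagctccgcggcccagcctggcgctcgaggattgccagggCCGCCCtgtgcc
PRKAA2, chr1:56645064-56645363, plus strand: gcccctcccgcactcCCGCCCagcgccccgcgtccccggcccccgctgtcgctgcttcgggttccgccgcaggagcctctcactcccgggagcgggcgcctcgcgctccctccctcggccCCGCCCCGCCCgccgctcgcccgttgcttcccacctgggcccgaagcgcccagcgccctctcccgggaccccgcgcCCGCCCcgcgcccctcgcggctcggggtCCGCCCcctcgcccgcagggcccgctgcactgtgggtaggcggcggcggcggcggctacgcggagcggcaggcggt
The SESN3 window held no GC box and 45.0% G and C bases, the SESN1 window shown held 8 boxes and 75.0%, and the PRKAA2 window held 5 boxes and 82.7%. Windows at other SESN1 starts, not shown, held 5 boxes and 72.3%, and 1 box and 58%. Of 35116 windows of all genes, 45.0% held a GC box. All 9 genes matched the table, with 15 windows in all. Among these 15 windows, the FOXO element GTAAACA was found once, at STK11, against 3.42% of all windows. The E-box CACGTG (7.26% of all windows) and the ATF4 element TGATGNAA (3.62%) were found in none of the 15. These are matches of letters in short windows on both strands, not sites.

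Several properties of the libraries bear on every value below. Total counts ranged from 15669154 to 62968057 per library. The 4 libraries with glucose in experiment 2 were paired-end, with each mate counted, whereas the other 10 were single-end, so within experiment 2 the read layout cannot be told apart from glucose. The glucose-deprived libraries of experiment 2 were unusually close within each genotype (chi-square per gene of 1.65 for KMT2D-WT and 1.71 for KMT2D-KO, against 23.0 to 72.7 for other pairs of 1 group and experiment). The library labelled KO1 among them went against its label: over 29 genes that separated the lines in glucose, its mean distance on the log2 scale was 4.97 from the KO1 profile and 0.61 from the KO2 profile. It is called the library labelled KO1 below. KMT2D transcript remained in the KMT2D-KO libraries, at 175 to 371 CPM (counts scaled to a common library size by TMM) against 270.5 to 274 CPM in KMT2D-WT cells with glucose, and at 19.9 to 190 CPM against 234 to 239 CPM without it. The squamous markers KRT5, KRT14, KRT17, TP63, SFN and EGFR were present in every library, whereas KRT6A stayed at or below 1.13 CPM. Keratin levels were uneven, with KRT5 from 1.53 to 225 CPM, KRT14 from 26.9 to 252 CPM and KRT17 from 24.4 to 1301 CPM. Of the markers of other cell types, PTPRC (leukocytes) had 1 count in all 14 libraries and PECAM1 (endothelium) 35, while VIM, a mesenchymal marker, ranged from 86.3 to 118 CPM in KMT2D-WT and from 154 to 565 CPM in KMT2D-KO cells. COL1A1 also ranged higher, from 3.11 to 6.75 CPM in KMT2D-WT and from 7.27 to 15.4 CPM in KMT2D-KO cells, and of the whole marker list 2 of 13 tested were higher and 1 lower with glucose, and 9 of 14 higher and 1 lower without it, where 13.0% and 11.7% of all genes were called with glucose and 25.9% and 24.9% without it. The part of such shifts in the results below was not tested, and in bulk RNA fewer cells of a kind and less transcript per cell cannot be told apart.

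The order of the transcripts was first compared per kilobase of exon. PRKAA1 (14.8 CPM per kb, SD 6.47, n = 14 libraries) and STK11 (13.0, SD 2.96) were the highest, and PRKAA1 exceeded STK11 in 6 of 14 libraries, so these neighbours were not ordered. PRKAB2 (9.78, SD 2.51) and PRKAG1 (9.36, SD 2.47) followed and were not ordered either, with PRKAB2 higher in 9 of 14 libraries. PRKAB1 (5.55, SD 1.02) stood below PRKAG1 in 14 of 14 libraries and above PRKAG2 (2.02, SD 0.49) in 14 of 14. SESN1 (1.10, SD 0.42) stood below PRKAG2 in 13 of 14 libraries, and SESN3 (0.090, SD 0.094) was below SESN1 in all 14. On average per kb, the subunits that were measured were thus led by α1, β2 and γ1 at the transcript level. PRKAB2 fell below PRKAB1 in the KMT2D-WT library of experiment 1 without glucose (45.1% of the pair). The place of γ1 rests on exonic length, 16427 bases for PRKAG2 and 4166 for PRKAG1. In mean CPM PRKAG2 was above PRKAG1 in KMT2D-WT cells (37.3 against 29.5 with glucose, 42.8 against 35.6 without). In KMT2D-KO cells PRKAG2 was below (27.1 against 35.2, and 29.2 against 52.5).

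PRKAA2, which encodes the α2 subunit common in muscle, had 0 counts among 465752000 counts in all (chr1:56645314-56715335, plus strand). A count of 0 allows up to 3 counts in a library, and against that floor PRKAA1 per kb was at least 489-fold to at least 3692-fold higher in each library. This covers counting error only. PLPP3, a lipid phosphatase gene that starts 13 bases from PRKAA2 on the other strand, was counted: it lay between 0 and 0.10 CPM in the 6 KMT2D-WT libraries and between 0.89 and 2.39 CPM in the 8 KMT2D-KO libraries. C8A and FYB2, also read beside PRKAA2, had 0 counts in all 14 libraries. Whether PRKAA2 differed from its surroundings was not tested. PRKAG3, the remaining γ paralog, had 0 to 7 counts per library and was not tested.

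PRKAA1, the catalytic α1 subunit (chr5:40759379-40798374, minus strand), was higher in KMT2D-KO cells in both conditions. With glucose its level was 48.5 CPM in KMT2D-WT cells of experiment 1 against 70.8 CPM in KO1 and 70.6 CPM in KO2, and in experiment 2 it was 71.0 and 77.9 CPM against 119.9 CPM in KO1 and 124 CPM in KO2. Without glucose it was 49.2 CPM against 64.5 and 77.1 CPM in experiment 1, and 113 and 117 CPM against 173 CPM in the library labelled KO1 and 183 CPM in KO2. Each KMT2D-KO library stood above each KMT2D-WT library of its experiment and condition, although the experiments themselves differed as much as the genotypes. The fold was 1.58 with glucose (log2 fold change 0.66, SE 0.08, adjusted p = 6.37e-04, quasi-likelihood test of edgeR, Benjamini-Hochberg adjusted over all genes, as are all adjusted p-values below unless another tool is named) and 1.50 without it (log2 fold change 0.59, SE 0.07, adjusted p = 7.67e-04).

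**Figure D1:**
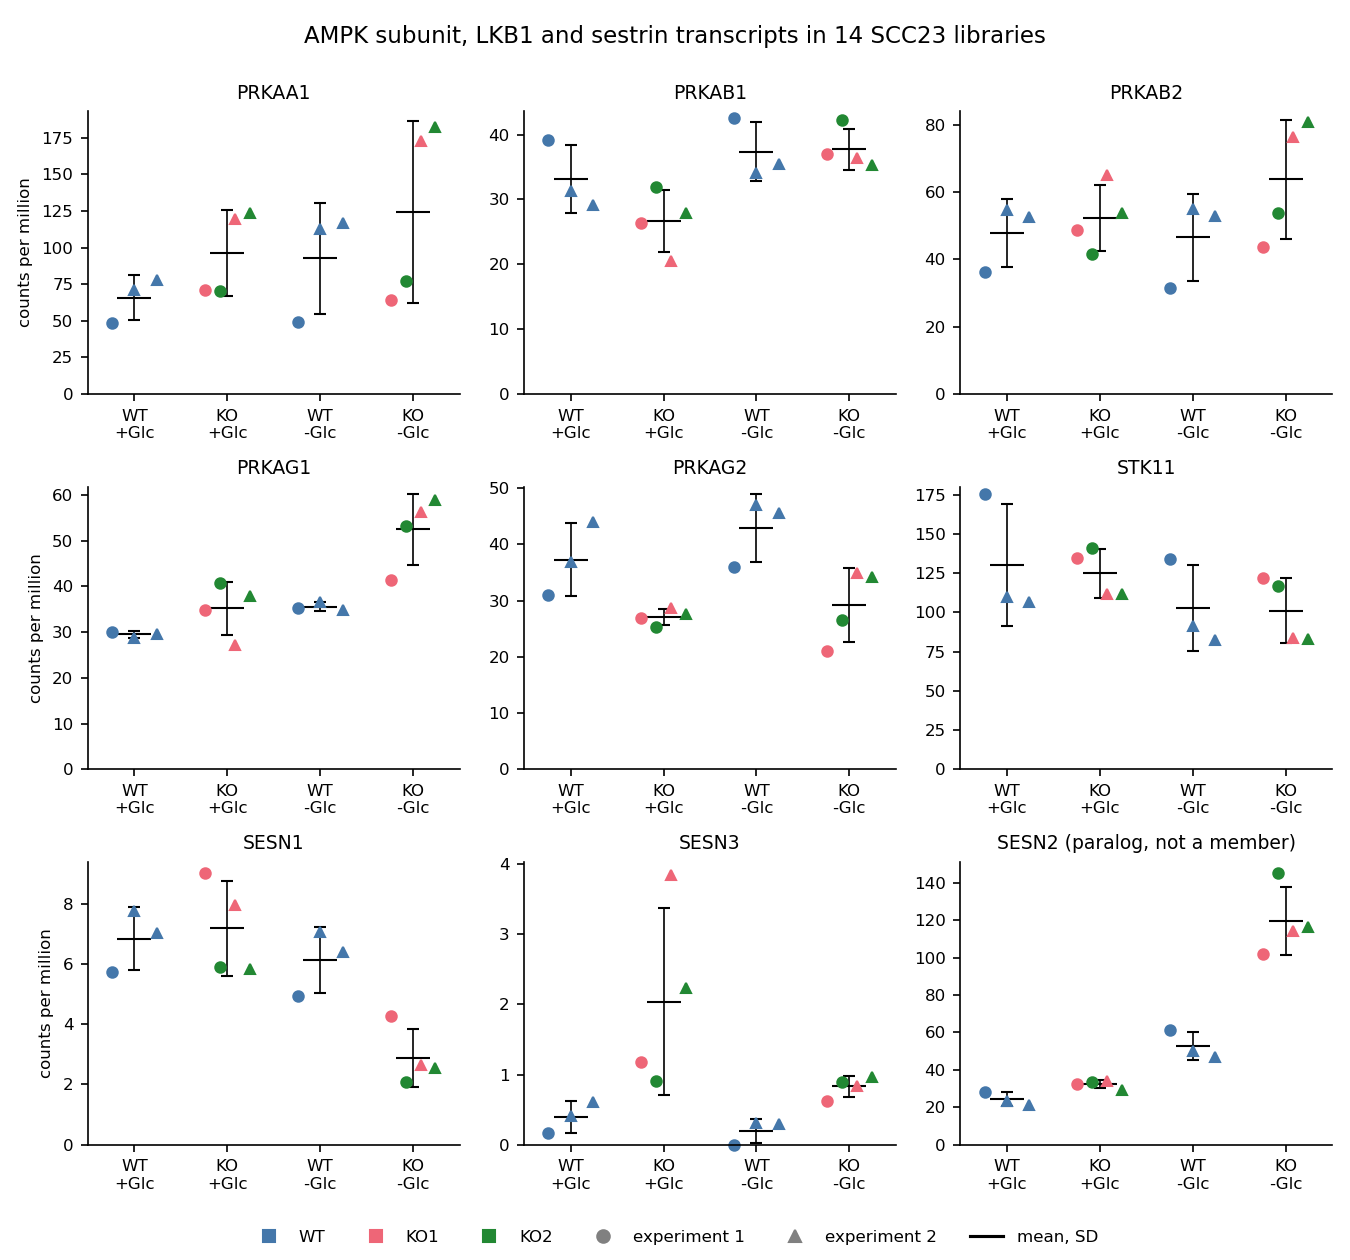
TMM-scaled level of each transcript in CPM (linear axes from 0) in KMT2D-WT and KMT2D-KO libraries with (+Glc) and without (-Glc) glucose, with 1 point per library; colour gives the labelled line, shape the experiment, and black bars the mean and SD of each group. PRKAA1 in the KMT2D-KO libraries lies between 64.5 and 183 CPM, SESN1 falls to between 2.07 and 4.27 CPM in KMT2D-KO libraries without glucose, and SESN3 is at or below 0.62 CPM in all KMT2D-WT libraries.

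The β subunits were compared in level and in balance. PRKAB1 (β1, chr12:119667864-119681624, plus strand) lay between 29.2 and 39.1 CPM in KMT2D-WT and between 20.5 and 32.0 CPM in KMT2D-KO cells with glucose, which did not pass the test (log2 fold change −0.35, SE 0.13, adjusted p = 0.0811). It was called with library-size scaling (−0.40, adjusted p = 0.0376), with no filter on low counts (−0.37, adjusted p = 0.0334), in 1 fit over all 14 libraries (−0.35, adjusted p = 0.0397), for line KO1 alone and without KMT2D-KO replicate 4 (adjusted p = 0.0198). Without glucose the groups overlapped, at 34.1 to 42.5 CPM and 35.3 to 42.3 CPM (log2 fold change −0.02, 95% interval −0.20 to 0.16, adjusted p = 0.853). PRKAB2 (β2, chr1:147155106-147172550, minus strand) was 36.3, 54.6 and 52.5 CPM in KMT2D-WT and 48.7, 41.7, 65.2 and 53.7 CPM in KMT2D-KO cells with glucose (adjusted p = 0.165). Without glucose PRKAB2 was 31.6 CPM against 43.8 and 53.9 CPM in experiment 1, and 55.1 and 52.9 CPM against 76.5 and 80.9 CPM in experiment 2, a rise of 1.49-fold (log2 fold change 0.57, SE 0.08, adjusted p = 0.00130). As a share of the pair per kb, PRKAB2 made up 61.0% ± 8.98 (SD, n = 3) in KMT2D-WT and 68.0% ± 7.68 (SD, n = 4) in KMT2D-KO cells with glucose, and 57.2% ± 10.5 (n = 3) and 64.2% ± 7.70 (n = 4) without it.

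The γ subunits moved in opposite directions. PRKAG2 (γ2, chr7:151556124-151877125, minus strand) was 31.0 CPM in KMT2D-WT cells against 26.8 CPM in KO1 and 25.2 CPM in KO2 in experiment 1 with glucose, and 36.9 and 43.9 CPM against 28.6 and 27.6 CPM in experiment 2. Without glucose it was 35.9 CPM against 21.1 and 26.5 CPM, and 47.0 and 45.6 CPM against 35.0 and 34.1 CPM. The KMT2D-KO libraries were the lower ones in each experiment and condition, by 1.33-fold with glucose (log2 fold change −0.41, SE 0.11, adjusted p = 0.0253) and 1.41-fold without it (log2 fold change −0.49, SE 0.09, adjusted p = 0.00364). The call with glucose rested on single libraries: leaving out KMT2D-WT replicate 1, 2 or 3 or KMT2D-KO replicate 3 or 4 gave adjusted p-values between 0.0550 and 0.0915 in edgeR.

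PRKAG1 (γ1, chr12:49002274-49018807, minus strand) rose in KMT2D-KO cells without glucose. Its level there was 35.4 CPM against 41.4 and 53.3 CPM in experiment 1, and 36.7 and 34.8 CPM against 56.2 and 59.0 CPM in experiment 2, a fold of 1.49 (log2 fold change 0.58, SE 0.10, adjusted p = 0.00307). With glucose it was 28.7 to 30.1 CPM in KMT2D-WT cells and 34.8, 40.8, 27.3 and 37.8 CPM in KMT2D-KO cells, and the lowest value was that of KO1 in experiment 2 (log2 fold change 0.24, SE 0.13, adjusted p = 0.233). Without that library, KMT2D-KO replicate 3, PRKAG1 was called at 0.38 (adjusted p = 0.0330). PRKAG1 lies 171 bases downstream of KMT2D, the edited gene, on the same strand, and 12.3% of its exonic bases overlap DDN-AS1 on the other strand, which had 4 to 38 counts per library against 590 to 2238 for PRKAG1. Within an experiment and condition, the KMT2D-KO line with more KMT2D also had more PRKAG1 where the lines clearly differed: 40.8 CPM of PRKAG1 at 320.3 CPM of KMT2D in KO2 against 34.8 at 175 in KO1 with glucose in experiment 1, 37.8 at 371 against 27.3 at 187 in experiment 2, and 53.3 at 189.9 against 41.4 at 19.9 without glucose in experiment 1. All of these set KO2 against KO1. Between genotypes without glucose the order was the other way. There KMT2D-WT libraries held 234 to 239 CPM of KMT2D and 34.8 to 36.7 CPM of PRKAG1. KMT2D-KO libraries held 19.9 to 190 CPM and 41.4 to 59.0 CPM. In experiment 1 each line also had less KMT2D and more PRKAG1 without glucose than with it. The part of the neighbouring KMT2D gene in the PRKAG1 results was not tested.

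**Figure D2:**
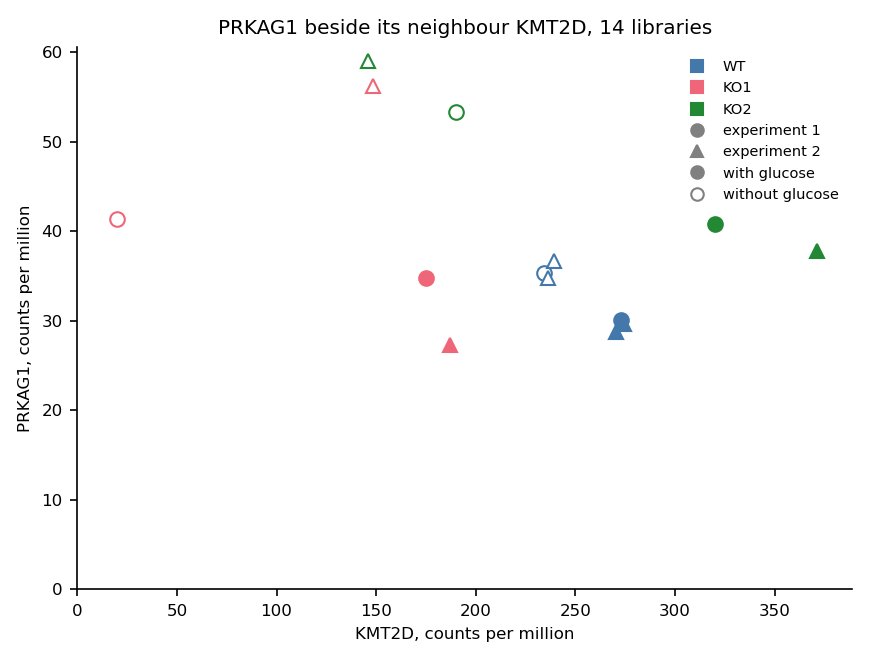
PRKAG1 against KMT2D, both in CPM on linear axes, with 1 point per library (14 in all); colour gives the labelled line, shape the experiment, and open symbols the libraries without glucose. The KMT2D-KO libraries without glucose hold the highest PRKAG1 values, 41.4 to 59.0 CPM, over KMT2D values from 19.9 to 190 CPM.

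The balance within each paralog pair was tested in each library, where no scaling between libraries enters. Over all 14 libraries the log2 ratio of PRKAB2 to PRKAB1 was higher in KMT2D-KO than in KMT2D-WT cells by 0.61, a 1.53-fold shift, in 4 of 4 combinations of experiment and condition (two-sided exact permutation test within these combinations, p = 0.00309, adjusted over 3 ratios 0.00309). The log2 ratio of PRKAG2 to PRKAG1 was lower, with a difference of −0.84, in 4 of 4 combinations (exact permutation p = 0.00309, adjusted 0.00309). PRKAG2 made up 24.2% ± 3.30 (SD, n = 3) of the pair per kb in KMT2D-WT and 16.6% ± 3.14 (n = 4) in KMT2D-KO cells with glucose, and 23.3% ± 2.46 (n = 3) and 12.3% ± 1.14 (n = 4) without it. The p-value is the smallest that 324 arrangements can give. With the close libraries of experiment 2 averaged, an alternative chosen after seeing the data, it was 0.00926 for each ratio, the smallest that 108 arrangements can give.

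**Figure D3:**
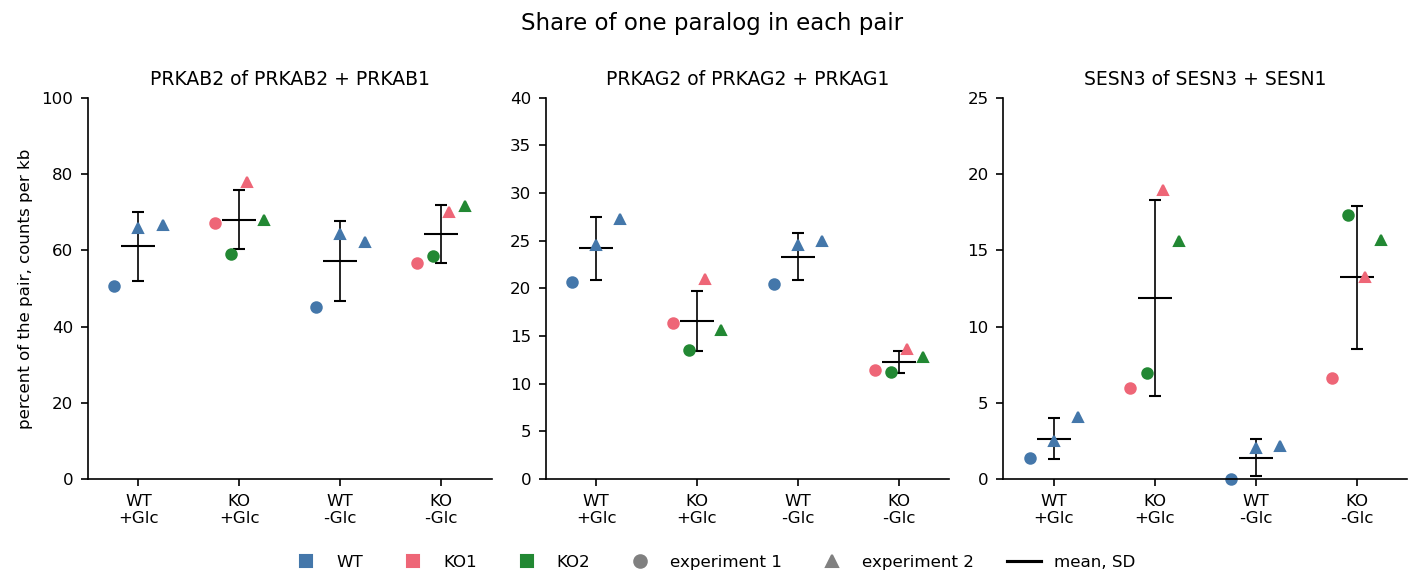
Share of PRKAB2, PRKAG2 and SESN3 in their paralog pairs, in percent of the pair's counts per kb, with 1 point per library; colour gives the labelled line, shape the experiment, and black bars the mean and SD. The y axes start at 0 and end at different values. PRKAG2 lies between 11.2% and 13.6% in the 4 KMT2D-KO libraries without glucose and between 20.5% and 24.9% in the 3 KMT2D-WT libraries.

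STK11, which encodes LKB1 (chr19:1177558-1228431, plus strand), did not pass the test in either condition. With glucose it was 175, 109.7 and 107 CPM in KMT2D-WT and 135, 141, 112 and 112 CPM in KMT2D-KO cells (log2 fold change −0.10, 95% interval −0.30 to 0.11, adjusted p = 0.508). Without glucose it was 134, 91.7 and 82.7 CPM against 122, 117, 83.5 and 83.1 CPM (log2 fold change −0.11, 95% interval −0.28 to 0.06, adjusted p = 0.250). The groups overlapped in both conditions, and experiment 1 held the higher values. Without KMT2D-KO replicate 1 of the glucose-deprived cells STK11 was called, at −0.13 (adjusted p = 0.0183).

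SESN3 showed the largest difference between genotypes among the 8 genes tested, at a low level (chr11:95165513-95232541, minus strand). With glucose it was 0.16 CPM in KMT2D-WT cells against 1.18 CPM in KO1 and 0.91 CPM in KO2 in experiment 1, and 0.41 and 0.62 CPM against 3.84 and 2.23 CPM in experiment 2. These levels correspond to 4, 27 and 36 counts in KMT2D-WT and to 19 to 249 counts in KMT2D-KO libraries. Each KMT2D-KO library stood above all KMT2D-WT libraries, with a fold of 6.05 (log2 fold change 2.60, SE 0.34, adjusted p = 8.72e-04). Without glucose the KMT2D-WT libraries had 0, 10 and 8 counts (0 to 0.30 CPM) and the KMT2D-KO libraries 10, 16, 18 and 23 counts (0.63 to 0.97 CPM), with a fold of 4.48 (log2 fold change 2.16, SE 0.59, adjusted p = 0.0203). This call was lost without KMT2D-WT replicate 2 or 3 or KMT2D-KO replicate 4, at adjusted p-values of 0.0559, 0.0609 and 0.0571.

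SESN1 (chr6:108986437-109094819, minus strand) was lower in KMT2D-KO cells without glucose. Its level there was 4.93 CPM in KMT2D-WT cells against 4.27 CPM in KO1 and 2.07 CPM in KO2 in experiment 1, and 7.05 and 6.40 CPM against 2.65 CPM in the library labelled KO1 and 2.53 CPM in KO2 in experiment 2. All KMT2D-KO libraries were below all KMT2D-WT libraries, by 2.13-fold (log2 fold change −1.09, SE 0.29, adjusted p = 0.0185). With glucose the groups overlapped, at 5.72, 7.76 and 7.04 CPM and at 9.03, 5.91, 7.97 and 5.83 CPM (log2 fold change 0.09, 95% interval −0.39 to 0.57, adjusted p = 0.802). The call without glucose was lost in edgeR when KMT2D-WT replicate 2 or 3 or KMT2D-KO replicate 3 or 4 was left out, with adjusted p-values of 0.0671, 0.0598, 0.0755 and 0.0836, and 7.09% of the exonic bases of SESN1 overlap AL390208.1 on the other strand. The log2 ratio of SESN3 to SESN1 was higher in KMT2D-KO cells by 3.40 in 4 of 4 combinations of experiment and condition (exact permutation p = 0.00309, adjusted 0.00309), and by 2.35 with 5 counts added to each gene in place of 0.5. Without KMT2D-WT replicate 1 of the glucose-deprived cells, the library with 0 SESN3 counts, the difference was 2.58, a fold of 5.98 in place of 10.6. SESN3 made up 2.64% ± 1.35 (SD, n = 3) of the pair per kb in KMT2D-WT and 11.9% ± 6.41 (n = 4) in KMT2D-KO cells with glucose, and 1.40% ± 1.21 (n = 3) and 13.2% ± 4.69 (n = 4) without it.

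SESN2, the remaining sestrin, is given beside its paralogs. It lay between 21.1 and 28.3 CPM in KMT2D-WT and between 29.4 and 34.1 CPM in KMT2D-KO cells with glucose, and between 47.1 and 61.3 CPM and between 102 and 145 CPM without it. Its log2 fold change in KMT2D-KO cells was 0.41 with glucose (SE 0.11, adjusted p = 0.0244) and 1.15 without it (SE 0.12, adjusted p = 3.71e-04). Without glucose SESN2 and SESN3 were thus higher and SESN1 lower in KMT2D-KO cells.

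In counts, 2 of the 8 genes tested were higher (PRKAA1 and SESN3) and 1 was lower (PRKAG2) in KMT2D-KO cells with glucose, where 13.0% of 20423 genes were higher and 11.7% lower. Without glucose 4 were higher (PRKAA1, PRKAB2, PRKAG1 and SESN3) and 2 lower (PRKAG2 and SESN1), against 25.9% and 24.9% of 16782 genes. With the close libraries of experiment 2 summed into 1 per genotype, 0 of the 6 calls without glucose remained in edgeR. In that fit 16.5% of all genes were called. The adjusted p-values of the 6 in edgeR ran from 0.0510 for PRKAA1 to 0.178 for SESN1, while 5 of the 8 genes had an unadjusted p under 0.05. Without experiment as a covariate 0 of 8 were called with glucose (2 at an unadjusted p under 0.05; 4.75% of all genes called) and 2 without it, PRKAG1 and SESN1 (21.8%). With library sizes alone as scaling, which moved the median of all genes without glucose to −0.25, the counts without glucose were 4 higher and 4 lower. In that fit 53.8% of all genes were called.

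**Figure D4:**
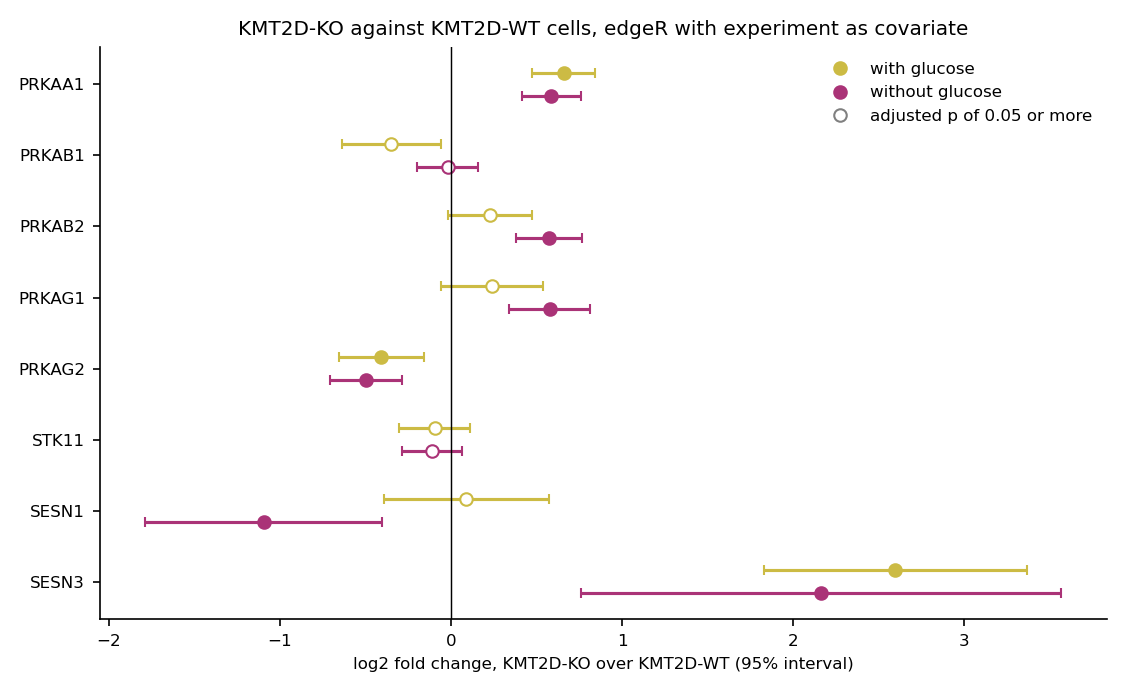
Log2 fold change of KMT2D-KO over KMT2D-WT cells with its 95% interval for the 8 genes tested, with glucose and without it, from edgeR with experiment as a covariate; open circles mark adjusted p-values of 0.05 or more. SESN3 lies at 2.60 and 2.16, PRKAA1 at 0.66 and 0.59, and PRKAG2 at −0.41 and −0.49, whereas SESN1 lies at 0.09 with and −1.09 without glucose.

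The direction of each call was the same in both experiments, while some sizes differed. With glucose the log2 fold change of PRKAA1 was 0.54 in experiment 1 and 0.71 in experiment 2, that of SESN3 2.62 and 2.58, and that of PRKAG2 −0.26 and −0.52. Without glucose the values were 0.50 and 0.63 for PRKAA1, 0.60 and 0.54 for PRKAB2, 0.40 and 0.69 for PRKAG1, −0.62 and −0.43 for PRKAG2, and −0.67 and −1.38 for SESN1. For SESN3 without glucose it was 1.59 in experiment 2, and experiment 1, where the KMT2D-WT library had 0 counts, gives no fold. Experiment 1 held 1 KMT2D-WT library in each condition, so only its effect sizes are given. The lines were compared with KMT2D-WT cells apart only with glucose, where the labels held, and both comparisons share the KMT2D-WT libraries. PRKAA1 was 0.64 in KO1 and 0.67 in KO2, and SESN3 was 2.90 and 2.22 on the log2 fold change scale. PRKAB1 was −0.55 in KO1 (adjusted p = 0.00104) and −0.17 in KO2 (adjusted p = 0.218), and PRKAG1 was 0.04 in KO1 (adjusted p = 0.842) and 0.42 in KO2 (adjusted p = 0.00276), and the difference between the lines was not tested.

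Whether the effect of KMT2D loss differed between the conditions was tested directly. By profile the mix of KMT2D-KO lines was not the same in both conditions, so line mix and glucose cannot be fully told apart here. Without glucose only KMT2D-KO replicate 1 lay nearer the KO1 than the KO2 profile (0.82 against 5.16). The library labelled KO1 of experiment 2 lay nearer KO2. In edgeR 0 of the 8 genes passed, where 11.3% of 18678 genes did, and 2 of the 8 had an unadjusted p under 0.05. SESN1 came nearest, with a log2 difference of −1.16 (SE 0.36, unadjusted p = 0.00680, adjusted p = 0.0555), and PRKAB2 followed with 0.37 (SE 0.14, adjusted p = 0.118). DESeq2 with the same design called 2, SESN1 at −1.13 (adjusted p = 0.0187) and PRKAB2 at 0.41 (adjusted p = 0.0402), and 18.6% of all genes. Without KMT2D-KO replicate 1 of the glucose-deprived cells edgeR called 3, namely SESN1, PRKAB2 and PRKAG1, and 22.5% of all genes. Without KMT2D-KO replicate 4 of the cells kept in glucose edgeR called 2, SESN1 and PRKAB1, and 11.7% of all genes.

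The response to glucose deprivation itself was compared in experiment 1, where the KMT2D-WT, KO1 and KO2 cells each had 1 library in both conditions and the layout was the same. In edgeR 0 of the 8 genes passed, against 0.479% of 16066 genes higher and 0.622% lower, and 1 had an unadjusted p under 0.05. That gene was SESN1, whose log2 level changed by −0.21 in KMT2D-WT, −1.07 in KO1 and −1.49 in KO2 cells (log2 fold change over the 3 pairs −0.96, SE 0.32, adjusted p = 0.151). Without the KMT2D-WT pair, through either of its libraries, SESN1 was called at −1.35 (adjusted p = 0.0197 and 0.0174). STK11 changed by −0.39, −0.15 and −0.28 in the same order (adjusted p = 0.269), PRKAG1 by 0.23, 0.25 and 0.39 (adjusted p = 0.425), and PRKAA1 by 0.02, −0.13 and 0.13 (adjusted p = 0.906). In experiment 2, where layout and glucose cannot be told apart and 49.9% of 18843 genes were called, 7 of the 8 genes were called, PRKAA1 with a log2 fold change of 0.59 and SESN1 with −0.74. SESN2, in contrast to the 8 genes, rose in experiment 1 (log2 fold change 1.59, SE 0.20, adjusted p = 0.00625).

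**Figure D5:**
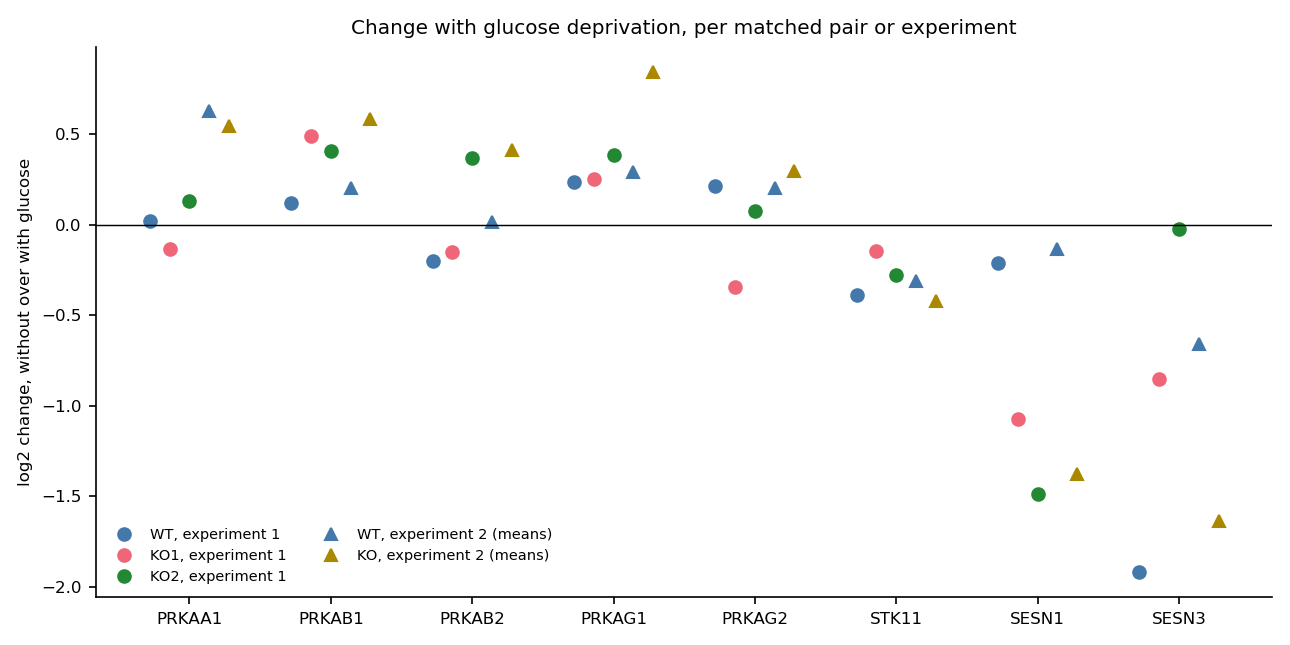
Change in log2 CPM from cells with glucose to cells without it, for each matched pair of experiment 1 (circles) and between the group means of experiment 2 (triangles), for the 8 genes with counts. SESN1 changes by −1.07 and −1.49 in KO1 and KO2 and by −0.21 in KMT2D-WT cells of experiment 1; the read layout of experiment 2 differs between the conditions.

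The partners of these proteins were counted from lists that were written from general knowledge. List genes were not checked with the close libraries of experiment 2 summed. That fit called 16.5% of all genes without glucose, against 50.8% in the fit used here. The counts that follow stand beside the shares of all genes given above, 13.0% higher and 11.7% lower with glucose and 25.9% and 24.9% without it. Of 7 tested LKB1 partners and other AMPK kinases, 1 rose with glucose and 1 rose and 2 fell without it. CAB39, the scaffold of the LKB1 complex, rose in both (log2 fold change 0.67, adjusted p = 0.0325, and 0.94, adjusted p = 5.26e-04). CAMKK1, a calcium-dependent kinase that can activate AMPK, fell by 1.79 on the log2 scale without glucose (adjusted p = 1.53e-04) and STRADA, the pseudokinase of the LKB1 complex, fell by 1.07 (adjusted p = 0.0189). Of 12 other kinases that LKB1 activates, 1 rose with glucose (SIK1, log2 fold change 0.99, adjusted p = 0.0116) and 5 rose and 0 fell without it, among them NUAK2 (1.26, adjusted p = 6.46e-05) and NUAK1 (1.21, adjusted p = 0.0319). The median log2 fold change of the 12 was 0.06 and 0.29, beside 0.02 and 0.00 over all genes tested.

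Of 23 tested substrates that AMPK phosphorylates, 4 rose and 6 fell with glucose, and 6 rose and 10 fell without it, with medians of −0.09 and −0.46, and the 6 higher without glucose are close to the 25.9% of all genes. TSC2, which restrains mTORC1, rose in both conditions (log2 fold change 0.62, adjusted p = 5.75e-04, and 0.87, adjusted p = 0.00139), and TBC1D4 rose with glucose (0.61, adjusted p = 0.0210). HDAC5, a class II histone deacetylase, rose without glucose (1.06, adjusted p = 3.39e-04). ACACB, an acetyl-CoA carboxylase, and CLIP1, a microtubule plus-end protein, fell with glucose by 0.92 (adjusted p = 0.00310) and 0.90 (adjusted p = 5.90e-04) on the log2 scale. ULK2, an autophagy kinase, and PIKFYVE, a lipid kinase, fell without glucose by 1.26 (adjusted p = 0.00134) and 1.09 (adjusted p = 0.00133).

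Of the sestrin partners in GATOR2, GATOR1 and the RAG GTPases, 16 of 18 names were in the tables. With glucose 5 of 16 tested rose and 3 fell, and without glucose 3 of 15 rose and 5 fell, with medians of −0.01 and −0.08, and the counts without glucose are near the 25.9% and 24.9% of all genes. RRAGD, a RAG GTPase, had 0 to 4 counts in the KMT2D-WT libraries and 17 to 370 counts in the KMT2D-KO libraries, and was called higher with and without glucose (adjusted p = 0.00349 and 0.00224). NPRL3, a GATOR1 subunit, rose in both conditions (log2 fold change 1.04 and 0.95, adjusted p = 2.36e-04 and 1.37e-04). DEPDC5, another GATOR1 subunit, fell (log2 fold change −1.49 and −1.93, adjusted p = 8.43e-05 and 6.54e-05), as did CASTOR2, of the arginine sensor family (log2 fold change −0.73 and −1.22, adjusted p = 0.00141 and 3.80e-04).

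Lists of p53 and FOXO targets were counted because SESN1 and SESN3 belong to them. Of 23 tested p53 targets 1 rose and 7 fell with glucose, and 4 rose and 8 fell without it, with medians of −0.26 and −0.16, against 13.0% and 11.7% of all genes called with glucose, 25.9% and 24.9% without it, and all-gene medians of 0.02 and 0.00. BTG2 rose with glucose (log2 fold change 1.67, adjusted p = 5.45e-04), where PLK3 fell by 0.99 and ZMAT3 by 0.89 (adjusted p = 0.00387 and 0.00456). Without glucose GDF15, a stress cytokine, rose by 2.19 (adjusted p = 3.49e-04) and TNFRSF10B, a death receptor, by 0.46 (adjusted p = 0.00444), while POLH fell by 1.47 and CDKN1A, a cell cycle inhibitor, by 1.31 (adjusted p = 5.31e-05 and 0.00536). Of the FOXO targets, 1 of 16 tested rose and 6 fell with glucose, whereas 8 of 15 rose and 3 fell without it, with medians of −0.11 and 0.36, against the same shares and medians of all genes. KLF6 rose with glucose by 0.49 (adjusted p = 0.00235), where IGFBP1 fell by 2.69 (adjusted p = 0.0180) at 9 to 26 counts in KMT2D-WT and 0 to 6 in KMT2D-KO libraries, and TXNIP, an inhibitor of glucose uptake, fell by 1.26 (adjusted p = 1.23e-04). Without glucose CITED2 rose by 2.27 and GADD45A by 1.55 (adjusted p = 3.11e-05 and 1.04e-04), and BCL2L11 fell by 1.07 and INSR, the insulin receptor, by 0.96 (adjusted p = 0.00100 and 6.15e-04).

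The test of the difference between the conditions called 11.3% of all genes in either direction. Of the 7 LKB1 partners and other AMPK kinases 1 was called lower, the AMPK kinase CAMKK1 (−1.40, adjusted p = 0.00805). Of 12 LKB1-activated kinases 2 were called higher. Of 23 AMPK substrates 3 were higher and 3 lower, and of 23 p53 targets 3 were higher and 3 lower. Of 15 FOXO targets 3 were higher, while 0 of the 16 tested GATOR and RAG genes were called in edgeR. With glucose deprivation in experiment 1, 2 of 23 tested p53 targets rose, and of 15 tested FOXO targets 3 rose and 1 fell. In that comparison 0.479% of all genes were higher and 0.622% lower. None of the other 4 lists named above held a called gene there.

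The genes whose levels ran most like those of the 3 members with the largest effects without glucose were found among 10875 genes, as Pearson's r of log2 CPM centred within each experiment and condition over 14 libraries. For SESN3 they were PPAT (0.956), MAGI1 (0.956) and KLHL13 (0.950), for SESN1 AC015813.1 (0.982), NSF (0.972) and OGFRL1 (0.964), and for PRKAA1 they included SORCS2 (0.989) and KCTD15 (0.987). These are descriptions: the libraries share depth and genotype, and the close libraries of experiment 2 count as separate points.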

How the data were processed

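The deposited counts are unnormalized: the authors mapped reads to GRCh38 with HISAT2 and counted them per gene name with featureCounts 2.0.3, ignoring strand, on Ensembl 102. Both mates were counted in 4 libraries and single reads in 10. Genes were filtered with filterByExpr (minimum count 10), scaled by TMM and tested by the quasi-likelihood method of edgeR 4.0.16 (R 4.3.3), and called at a Benjamini-Hochberg adjusted p under 0.05. Each glucose condition was fitted alone with experiment as a covariate, which blocks the pairing of genotypes by experiment: differences between experiments correlated over genes between genotypes (0.87 with and 0.79 without glucose). The difference of the effects was fitted on 14 libraries with experiment within condition. Intervals are 95% intervals of the log2 fold change on the degrees of freedom of the fit. Levels are TMM-scaled CPM, and log2 CPM used a prior count of 2. Ratios used counts plus 0.5 per kb. The ratio of PRKAA2 to PRKAA1 could not be tested because PRKAA2 had no count, so 3 ratios were adjusted in place of 4. Labels do not say whether libraries of 1 experiment came from separate cultures, so p-values measure the spread between libraries, which may be technical. Floors cover counting error only.

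The members and lists were chosen with earlier results of these data known. Named genes are the 9 members, KMT2D, markers, up to 2 called genes per list and direction with the largest fold in each genotype comparison, and the 3 genes most like each of the 3 members with the largest fold without glucose. Some genes that this rule names are not reported here. The neighbours PLPP3, DDN-AS1 and AL390208.1 were chosen after their values were seen. C8A and FYB2 were read beside PRKAA2 and are likewise named outside that rule. Alternatives were DESeq2 1.42.0, RLE and library-size scaling, no filter, length offsets, no covariate, single experiments, single lines, halved or summed counts of experiment 2, and each library left out. The tests were checked on simulated data.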

Additional observations from a re-analysis of the deposited data

Results flagged for a closer look

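The KMT2D-KO effect on SESN2, the sestrin that is no member of the set, differed between the conditions. The log2 fold change without glucose exceeded that with glucose by 0.77 (SE 0.18, adjusted p = 0.0177, edgeR's quasi-likelihood test for the difference). This fit counts the close glucose-deprived libraries of experiment 2 as separate and called 11.3% of all genes. With those libraries summed 1.23% were called, and with no block for experiment 0.375%. The SESN2 values under those settings are not reported here. By profile the mix of KMT2D-KO lines also differed between the conditions. Among 20 combinations of gene and 4-library group tested for an outlying library, none was found, where chance gives about 1 in 20.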

How the results depend on the processing

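The directions of PRKAA1, PRKAG2 and SESN3 between genotypes held under every alternative run in both conditions, as did those of PRKAB2, PRKAG1 and SESN1 without glucose, but their calls did not. Percentages in brackets give the share of all genes called in the same fit. Of the 8 genes tested, 3 were called with glucose (24.7%). This count became 0 with no block for experiment (4.75%), 5 for line KO1 (30.6%) and 4 for line KO2 (35%). It was 4 with library-size scaling (25.1%), 4 without a filter (16.7%) and 4 in the fit over all 14 libraries (28%). Experiment 2 alone gave 2 (11.7%), and leaving out 1 library gave 2 to 3 (10% to 26.1%). Without glucose 6 were called (50.8%), against 2 with no block for experiment (21.8%) and 3 without the block in DESeq2 (28.8%). With the close libraries of experiment 2 summed the count was 0 (16.5%), and with 1 library left out 4 to 7. It was 4 without KMT2D-WT replicate 2 (36.1%), KMT2D-WT replicate 3 (36.5%) or KMT2D-KO replicate 4 (37.6%), and 7 without KMT2D-KO replicate 1 (74.4%). For the difference between the conditions 0 were called (11.3%), against 2 in DESeq2 (18.6%) and 1 with library-size scaling (14.3%). The count was 1 without a filter (6.23%), 1 with length offsets (15%), and 0 to 3 with 1 library left out (4% to 22.5%). For this difference, 1.23% of all genes were called with the close libraries of experiment 2 summed. With no block for experiment 0.375% were. For glucose deprivation in experiment 1, 0 were called (1.1%), against 1 without a filter (3.57%) and 7 in experiment 2 alone (49.9%). Over all 14 libraries the count was 6 (44.6%), and with 1 library left out 0 to 1 (0.96% to 8%). In each condition alone the ratios could not go below p = 0.0556 in an exact permutation test, and their differences were 0.61, −0.62 and 2.41 with glucose and 0.61, −1.06 and 4.39 without it, for PRKAB2 to PRKAB1, PRKAG2 to PRKAG1 and SESN3 to SESN1.

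Signs reversed only for values that had not been called. With glucose, STK11 was 0.051 and SESN1 −0.098 in experiment 2 alone, and SESN1 was −0.18 in KO2; with 1 library left out STK11 ran from −0.14 to 0.05 (0.0501) and SESN1 from −0.10 (−0.0986) to 0.24. Without glucose, PRKAB1 was 0.0346 in DESeq2, 0.0340 with RLE scaling, 0.0460 with length offsets, 0.0162 with no block, 0.0763 with no block in DESeq2, 0.0426 in experiment 2 alone and 0.000539 over all 14 libraries, and STK11 was 0.00896 with length offsets and 0.0415 with no block in DESeq2. For the difference between conditions, STK11 was −0.21 with library-size scaling and −0.0170 with summed libraries, and PRKAA1 and PRKAG2 were 0.0430 and 0.0839 with length offsets. For glucose deprivation PRKAA1, PRKAB2 and PRKAG2 were 0.0798, 0.0700 and 0.13 with length offsets, 0.59, 0.21 and 0.25 in experiment 2 alone, and 0.32, 0.11 and 0.12 over all 14 libraries. With 1 library left out, PRKAB1 without glucose ran from −0.0542 to 0.0334. The difference between conditions then ran from −0.11 to 0.0317 for PRKAA1, −0.16 to 0.0415 for PRKAG2 and −0.15 to 0.0884 for STK11, and glucose deprivation from −0.10 to 0.0497 for PRKAA1, −0.22 to 0.0610 for PRKAB2 and −0.20 to 0.12 for PRKAG2.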
